A study of Mus musculus with 4 samples.

Results

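The HoxB cluster is 1 of the 4 clusters of Hox genes in the mouse. It was followed here through the cell classes of the newborn oviduct and uterus. Its 10 genes, Hoxb1 to Hoxb9 and Hoxb13, were taken by symbol from the 31053 genes of the matrices, and their counts were summed over the cells of each class in each library. At least 1 UMI (unique molecular identifier, 1 captured RNA molecule) was found in a class for 9 of the 10. The material was untreated wild type tissue of CD1 mice at postnatal day 3, with 2 oviduct and 2 uterine libraries of 10x Genomics 3' single-cell RNA. The pools held 3 and 4 neonates, and both organs came from the same animals. The organ tests do not pair the libraries, since which pool a replicate number stands for is not given. Pooling leaves the spread between single animals unseen. The p-values of the organ tests measure only the spread between these libraries. Those of the class and interaction tests measure the spread between class sums that is left once library is a term, pooled over all classes.

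Hox genes encode homeodomain transcription factors that give cells a position along the head-to-tail axis. Within a cluster the genes lie in the order in which they are used along that axis, with low numbers active further forward and high numbers further back. They bind DNA with Pbx, Meis and Pknox cofactors, are switched on by retinoic acid, Fgf, Wnt and Cdx factors, and are held silent or active by Polycomb and Trithorax proteins. In the female tract the genes of the HoxA and HoxD clusters are the ones best known, since they divide the Müllerian duct into oviduct, uterus, cervix and vagina. Both the oviduct and the uterus form from this duct.

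The cluster lies on chromosome 11 of GRCm38 (mm10, the build named in the submitters' processing notes), on the plus strand, and spans 173.941 kb from Hoxb13 (96194316-96197447) to Hoxb1 (96365752-96368256). Hoxb13 stands apart from the rest, with 74.01 kb between it and Hoxb9 (96271457-96276595). Of the 19 genes annotated in this interval, 14 are in the matrices. Besides the 10 HoxB genes these are the lincRNA Gm53 (96251105-96264868) and the antisense RNAs Hoxb5os, Gm11536 and Hoxb3os. The microRNA genes Mir196a-1, between Gm53 and Hoxb9, and Mir10a, between Hoxb5 and Hoxb4, lie in the same interval, and their levels were not analysed here. Their mature products are shown because they are cut from the same cluster and because miR-196a is known to cleave the Hoxb8 transcript. The sequences are from RefSeq (GRCm38.p6), with the seed (bases 2 to 8) in capitals, and the 2 seeds differ. The third line is the stretch of the Hoxb8 transcript opposite miR-196a-5p, with the bases facing its seed in capitals.
miR-10a-5p, chr11:96317186-96317208, plus strand: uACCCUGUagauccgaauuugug
miR-196a-5p, chr11:96265187-96265208, plus strand: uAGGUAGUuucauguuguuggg
Hoxb8 site, chr11:96284888-96284909, plus strand: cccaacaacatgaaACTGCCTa
The Hoxb8 site lies in exon 2 of 2, after the coding sequence. All 22 bases of miR-196a-5p can pair with it, 21 as Watson-Crick pairs and 1 as a G:U pair. Of 21877 protein-coding genes in GENCODE M21, 2 hold a site with 22 such pairs, Hoxb8 and Rps6ka2. Mature microRNAs were not measured by these libraries.

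Promoter stretches were at hand for Hoxb1, Hoxb4 and Hoxb8 alone of the members. Of these, the 250 bases before the start of Hoxb8 and of Hoxb4 are shown. They were picked because the genes differed between the organs in opposite directions, Hoxb8 in the summed epithelium and Hoxb4 in the stroma. Capitals mark TTTATG and TTTATT on either strand, letters that Cdx factors are known to bind.
Hoxb8, chr11:96281655-96281904, plus strand: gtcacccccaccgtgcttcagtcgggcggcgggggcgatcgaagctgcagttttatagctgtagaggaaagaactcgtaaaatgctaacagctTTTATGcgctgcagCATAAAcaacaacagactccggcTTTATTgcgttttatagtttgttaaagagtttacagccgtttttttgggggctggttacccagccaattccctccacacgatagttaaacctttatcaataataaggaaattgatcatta
Hoxb4, chr11:96318017-96318266, plus strand: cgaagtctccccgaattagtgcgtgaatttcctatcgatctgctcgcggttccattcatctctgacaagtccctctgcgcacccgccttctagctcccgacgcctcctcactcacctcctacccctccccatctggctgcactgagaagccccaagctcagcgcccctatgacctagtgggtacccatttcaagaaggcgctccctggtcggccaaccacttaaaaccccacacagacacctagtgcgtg
The Hoxb8 stretch holds TTTATG at 2 places, 1 on each strand, and TTTATT at 1 place. The Hoxb4 stretch holds neither, and so has no capitals. Of 27025 RefSeq promoters of the same length, 11.1% hold TTTATG and 18.5% hold TTTATT. The Hox-Pbx type letters TGATNNAT stand once in the Hoxb8 stretch, overlapping neither of the marked motifs, and are absent from the Hoxb4 stretch, against 7.91% of all promoters. These letters also stand at 1 place in the Hoxb1 stretch, which holds neither TTTATG nor TTTATT. The bases G and C make up 44.4% of the Hoxb8 stretch and 58.0% of the Hoxb4 stretch, and the median over all promoters is 52.0%. These are matches of letters and not measured sites, and their part in any organ difference was not tested.

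After filters 19890 cells remained of 26619 called barcodes, 3797 to 6432 per library, and library totals ran from 61117726 to 114419939 UMIs. Cells were put into classes by marker genes, never by Hox genes. This gave 8529 mesenchymal cells, 3693 smooth muscle cells, 571 pericytes, 897 mesothelial cells, 431 epithelial cells, 648 blood endothelial cells and 219 myeloid cells, and every marker of the list that defines a class was detected in it. Near the threshold of their class lay 13.0% of the mesenchymal and 20.04% of the smooth muscle cells, and 2386 cells between both stayed out of both. The uterine epithelium was small, with 42 and 45 cells, and so was the uterine mesothelium, with 64 and 48. Any 2 libraries shared 4 to 9 cell barcodes, at most 0.164% of the smaller one. In every class the replicates were further apart than chance sampling of UMIs gives (chi-square over its degrees of freedom, 1.95 to 19.4). The labels name the samples mesenchymal and epithelial cells, and the endothelial, myeloid and mesothelial cells in the libraries are outside that label.

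The first comparison is between the classes. Levels are given in CPM, the UMIs of a gene for every 1000000 UMIs that its class has in a library, for replicates 1 and 2 of each organ in that order. Epithelium and blood endothelium held the most HoxB RNA, pericytes were next, and the main stromal classes held little. Summed over the 10 genes, HoxB RNA stood at 277 and 267 CPM (oviduct) and 376 and 365 CPM (uterus) in epithelium and at 277 and 300.2 CPM (oviduct) and 239 and 202 CPM (uterus) in endothelium. Pericytes held 163 and 160.4 CPM (oviduct) and 112.3 and 89.1 CPM (uterus). Mesenchyme held 46.1 and 39.6 CPM (oviduct) and 41.0 and 36.9 CPM (uterus), and smooth muscle 21.1 and 20.1 CPM (oviduct) and 26.9 and 27.4 CPM (uterus). Every epithelial and endothelial library lay above every pericyte library, and every pericyte library above every mesenchymal and smooth muscle library. In mesothelium the sum was 19.8 and 17.0 CPM (oviduct) and 49.9 and 73.9 CPM (uterus), so that both uterine libraries lay above both oviduct libraries. Myeloid cells, which come from blood-forming tissue and not from the duct, had 0 to 2 HoxB UMIs per library. That is under 3 UMIs, the smallest count read as a level here, which in myeloid sums is 4.79 to 9.82 CPM. In single-cell sums a lower level can mean fewer cells with the RNA or less RNA in each.

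**Figure D1:**
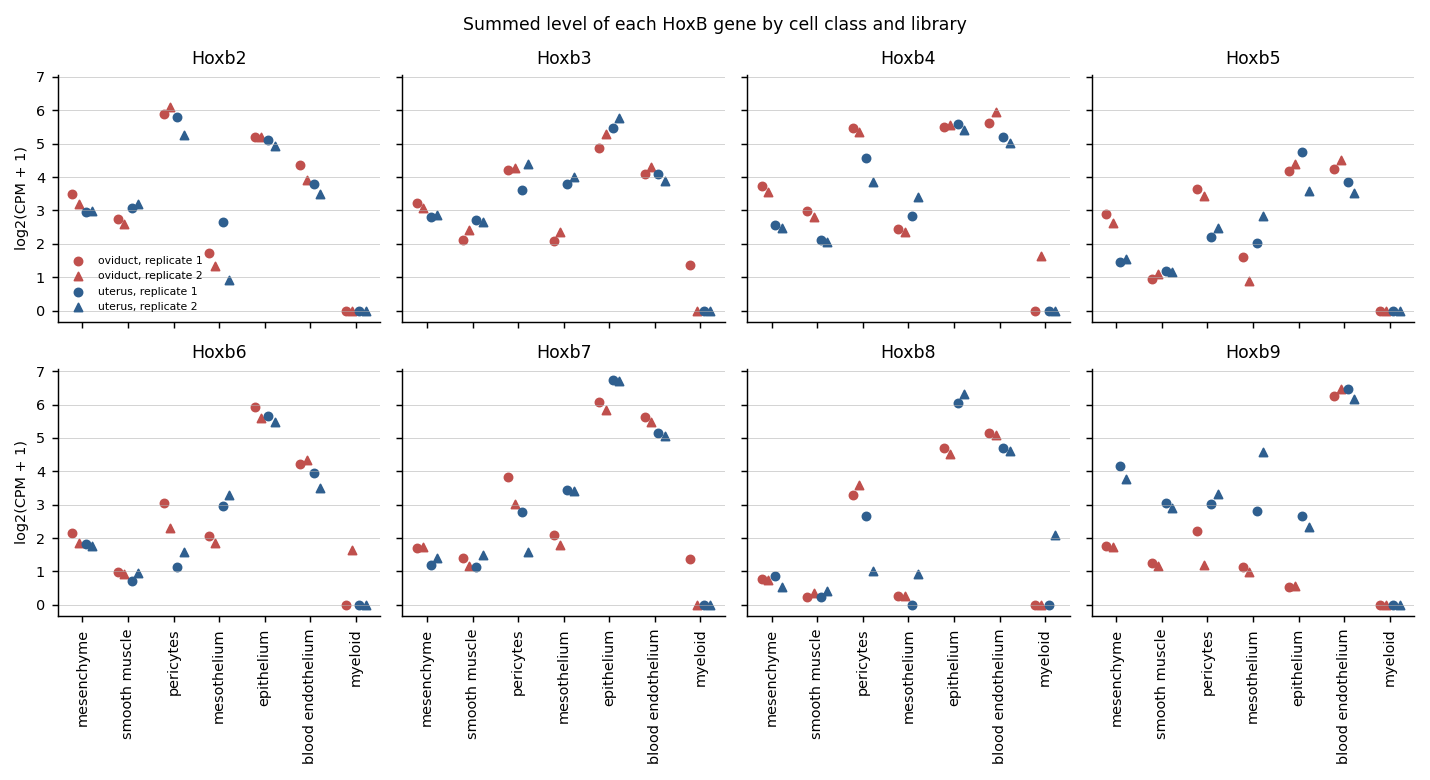
Level of Hoxb2 to Hoxb9, as log2(CPM + 1) of the summed counts, in 7 cell classes; red points are oviduct libraries, blue points uterine libraries, and the marker shape is the replicate. Hoxb2 to Hoxb8 are highest in epithelium, blood endothelium or pericytes, and Hoxb9 is highest in blood endothelium.

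Each class was tested against mesenchyme within each organ, in 1 model over all 28 sums. The 6 classes share the mesenchymal sums, so their differences are not independent. Of the 8 genes tested (Hoxb2 to Hoxb9), 7 were higher in epithelium than in mesenchyme in oviduct and 7 in uterus, and 1 was lower in each, Hoxb9. Over all 14872 genes 36.1% were called higher and 31.3% lower in oviduct, and 24.5% and 25.7% in uterus. In blood endothelium all 8 tested genes were higher in both organs, where 30.3% of all genes in oviduct and 27.3% in uterus were called higher. The median log2 difference of the 8 genes was 2.13 in oviduct epithelium and 3.07 in uterine epithelium, and 2.40 and 2.43 in the endothelium of both organs. Over all genes the 4 medians lay between -0.07 and 0.04. These epithelial and endothelial calls held in every alternative, except Hoxb2 in uterine endothelium. Its log2 difference of 0.63 became 0.43 without uterine replicate 1, and its adjusted p ran from 0.00945 to 0.216 over the alternatives.

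Pericytes, the mural cells of small vessels, were higher than mesenchyme in 7 of 8 genes in oviduct and in 5 of 8 in uterus, where 1 was lower. Of all genes 17.7% in oviduct and 14.0% in uterus were called higher, and 13.3% in uterus lower. Smooth muscle was lower than mesenchyme in 6 of 8 genes in oviduct and in 2 of 8 in uterus (all genes 13.6% and 7.99%). In oviduct mesothelium 6 of 8 were lower than in mesenchyme (all genes 23.9%), while in uterine mesothelium 3 were higher and 1 lower (all genes 19.7% and 18.7%). Over these 5 classes and both organs 63 of 80 differences were called, and 48 stayed called whichever library was left out. Besides Hoxb2 in uterine endothelium, the calls lost were in pericytes, smooth muscle and mesothelium. In pericytes they were Hoxb5 and Hoxb6 in oviduct and Hoxb3, Hoxb7, Hoxb8 and Hoxb9 in uterus. In smooth muscle they were Hoxb2, Hoxb3 and Hoxb8 in oviduct and Hoxb6 in uterus. In mesothelium they were Hoxb8 in oviduct and Hoxb2, Hoxb3 and Hoxb6 in uterus. Myeloid sums held too few UMIs for a fold.

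The other Hox clusters were set beside HoxB as shares of all Hox UMIs of a class. In epithelium HoxB made up 78.4% and 74.2% of the Hox UMIs in oviduct and 89.8% and 96.7% in uterus. In blood endothelium its share was 47.3% and 51.6% in oviduct and 37.9% and 34.0% in uterus. HoxD held less than HoxB in oviduct endothelium, 32.1% and 28.9%, and more in uterine endothelium, 44.4% and 47.6%. In pericytes the HoxB share was 14.3 to 23.1%, in mesothelium 3.02 to 8.71%, in mesenchyme 2.85 to 6.23% and in smooth muscle 2.64 to 2.99%. HoxB thus held most of the Hox UMIs of epithelium in all 4 libraries and few of those of mesenchyme and smooth muscle. Against mesenchyme the HoxA genes went the other way in epithelium: all 9 tested were lower in oviduct and 6 of 9 in uterus, and none was higher in either organ. Of 7 HoxC genes, 5 were lower and 1 higher in oviduct epithelium and 6 were lower in uterine epithelium. Of 5 HoxD genes, 3 were lower in oviduct epithelium and 5 in uterine epithelium. Of all genes 31.3% were called lower in oviduct epithelium and 25.7% in uterine epithelium. In endothelium 4 of 5 HoxD genes were higher than in mesenchyme in oviduct and 1 of 5 in uterus. Of all genes 30.3% and 27.3% were called higher there, so the uterine count is near that share. In endothelium 1 HoxD gene was lower in oviduct and 3 in uterus, and the share of all genes called lower is not reported here. Hoxd4 is left out of all shares and counts, because 2 features carry that symbol. Counts were taken near the 3' ends of transcripts and not per length, so the shares compare UMIs and not molecules per base.

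**Figure D2:**
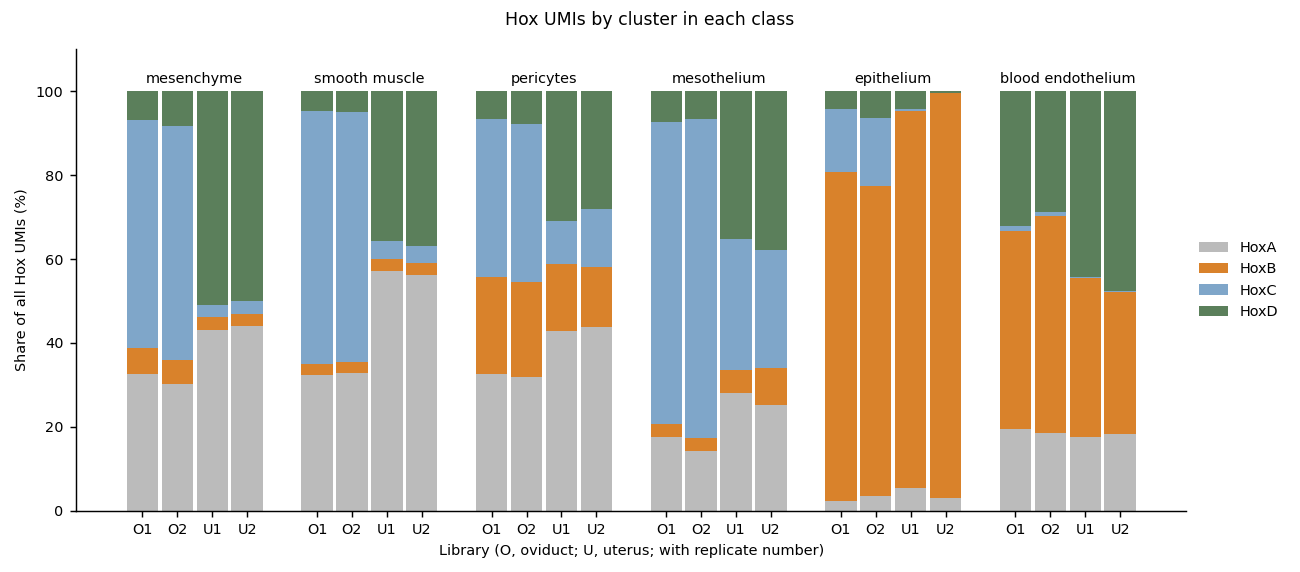
Share of all Hox UMIs (percent) that fell on each of the 4 Hox clusters, for each class and library (O, oviduct; U, uterus; the number is the replicate). The orange HoxB part is 74.2 to 96.7% in epithelium and 2.85 to 6.23% in mesenchyme.

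RNA released from broken cells reaches every droplet, and its upper limit was set per gene, class and library from droplets that hold no cell. In epithelium it could account for at most 1.79% of the UMIs of any of Hoxb2 to Hoxb8, and in endothelium for at most 4.47%. In mesenchyme it reached 33.6% and in pericytes 38.5%, with medians of 7.79% and 2.91%. For Hoxb9 in mesothelium it was 4.49% to 34.0%, with a median of 31.4%. For Hoxb9 in epithelium the limit was 11.03% to 16.6%. In mesothelium the limit for Hoxb2 to Hoxb8 had a median of 22.8% and reached 100% for Hoxb8 in oviduct replicate 1, as it did for Hoxb8 in smooth muscle of uterine replicate 1, on 3 and 2 UMIs.

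The genes of low number differed among themselves in which class held most. Hoxb1, which patterns the hindbrain, had at most 6 UMIs in any class sum and was not tested in any. Hoxb2, its neighbour and also a hindbrain gene, was highest in pericytes. It stood there at 58.3 and 67.4 CPM (oviduct) and 55.3 and 37.1 CPM (uterus), above epithelium with 35.6 and 35.9 CPM (oviduct) and 33.6 and 29.4 CPM (uterus) in every library. Its log2 difference of pericytes from mesenchyme was 2.74 ± 0.17 (SE, edgeR adjusted p = 3.48e-14) in oviduct and 2.71 ± 0.19 (SE, edgeR adjusted p = 1.56e-12) in uterus. Hoxb3 was highest in epithelium, at 28.3 and 38.3 CPM (oviduct) and 43.6 and 53.3 CPM (uterus). Pericytes and endothelium followed with 11.3 to 20.03 CPM and 13.9 to 18.7 CPM, and the libraries of both overlapped in each organ. In uterus the mesothelium, at 12.9 and 14.96 CPM, overlapped with both of these classes.

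Hoxb4 and Hoxb5 are both known from blood stem cells, where forced Hoxb4 expands the cells. Hoxb4 stood at 48.2 and 61.3 CPM (oviduct) and 35.7 and 31.5 CPM (uterus) in blood endothelium, and at 44.1 and 45.9 CPM (oviduct) and 47.4 and 41.9 CPM (uterus) in epithelium. In oviduct the endothelial libraries lay above the epithelial ones, and in uterus below them. Pericytes held 43.2 and 39.9 CPM (oviduct) and 22.6 and 13.5 CPM (uterus) and mesenchyme 12.2 and 10.7 CPM (oviduct) and 4.93 and 4.51 CPM (uterus). Hoxb5 had 18.0 and 21.9 CPM (oviduct) and 13.3 and 10.5 CPM (uterus) in endothelium and 17.1 and 19.9 CPM (oviduct) and 26.0 and 10.96 CPM (uterus) in epithelium, which overlapped in both organs.

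The genes in the middle of the cluster, Hoxb6, Hoxb7 and Hoxb8, had the 3 largest log2 differences of epithelium from mesenchyme in both organs. Hoxb7 is a known gene of the Wolffian duct and the ureteric bud, epithelial tubes that lie beside the Müllerian duct. It stood at 66.4 and 56.6 CPM (oviduct) and 106 and 103.2 CPM (uterus) in epithelium, against 1.30 to 2.29 CPM in mesenchyme. Its epithelial level was 29.3-fold the mesenchymal one in oviduct and 62.7-fold in uterus, with log2 differences of 4.87 ± 0.14 (SE, edgeR adjusted p = 1.67e-23) and 5.97 ± 0.18 (SE, edgeR adjusted p = 2.33e-22). Hoxb6 had 59.9 and 47.0 CPM (oviduct) and 49.7 and 43.9 CPM (uterus) in epithelium, and 10.3 to 19.3 CPM in endothelium. Hoxb8, long used to immortalise myeloid progenitors, had 25.2 and 22.1 CPM (oviduct) and 65.0 and 78.7 CPM (uterus) in epithelium and 34.6 and 33.3 CPM (oviduct) and 24.7 and 23.3 CPM (uterus) in endothelium. Its mesenchymal level was 0.456 to 0.808 CPM, so that log2 differences were 5.19 and 6.65 for epithelium and 5.59 and 5.09 for endothelium, in oviduct and uterus. In oviduct endothelium Hoxb8 was above epithelium in both libraries, and in uterine endothelium below it in both.

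Hoxb9, which takes part in patterning the ribs and the mammary gland, had another distribution. In blood endothelium it stood at 74.8 and 88.2 CPM (oviduct) and 87.3 and 70.4 CPM (uterus). Every endothelial library lay above every library of all other classes: mesenchyme held 2.38 and 2.29 CPM (oviduct) and 16.9 and 12.8 CPM (uterus), and epithelium 0.443 and 0.484 CPM (oviduct) and 5.35 and 3.99 CPM (uterus). Those epithelial values rest on 3, 4, 7 and 8 UMIs. The mesenchymal libraries rest on 62 to 377. In epithelium Hoxb9 was lower than in mesenchyme, with log2 differences of -2.19 ± 0.53 (SE, edgeR adjusted p = 5.34e-04) in oviduct and -1.85 ± 0.38 (SE, edgeR adjusted p = 1.65e-04) in uterus, while Hoxb8, the next gene along, was higher. The endothelial excess over mesenchyme was 5.09 in oviduct and 2.29 in uterus. Hoxb13, the gene of the prostate and tail bud at the far end of the cluster, had 0 UMIs in every class sum. In mesenchyme, the largest sum, that allows at most 0.0686 to 0.137 CPM per library.

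The second comparison is between the organs within a class. Differences are log2 fold changes, oviduct minus uterus. A class need not be made up alike in both organs. When the cells were clustered without Hox genes, most mesenchymal and smooth muscle clusters held mainly cells of 1 organ: cluster 0 held 1070 and 692 oviduct and 4 and 10 uterine cells of the mesenchyme, cluster 1 held 23 and 17 oviduct and 827 and 653 uterine cells, and of the smooth muscle cluster 7 held 518 and 439 oviduct and 1 and 2 uterine cells and cluster 4 held 11 and 27 oviduct and 367 and 349 uterine cells. Of the 8 HoxB genes tested in mesenchyme 4 were called, 3 higher in oviduct and 1 in uterus, where 47.9% of all 14907 genes tested were called. Hoxb9 was higher in uterine mesenchyme, where it was 6.57-fold its oviduct level. Its levels were those given above, and both uterine libraries lay far above both oviduct libraries. The log2 fold change was -2.72 ± 0.16 (SE, edgeR adjusted p = 1.12e-07). Hoxb5 went the other way, with 6.42 and 5.22 CPM (oviduct) and 1.75 and 1.92 CPM (uterus), and so did Hoxb4. Their log2 fold changes were 1.62 ± 0.20 (SE, edgeR adjusted p = 5.31e-05) and 1.22 ± 0.13 (SE, edgeR adjusted p = 1.69e-05). For both genes each oviduct library lay above each uterine one. A single cluster, number 8, gave 64.8% and 51.8% of the Hoxb5 UMIs of oviduct mesenchyme, and 12.8% and 7.14% of those of uterine mesenchyme. It held 351 and 233 oviduct and 30 and 19 uterine cells of the class. With the cluster left out, a fit added after seeing the data, Hoxb5 differed by 0.61 and was not called (edgeR adjusted p = 0.0520). Hoxb4 (0.98) and Hoxb9 (-2.95) were still called. The differences of other classes from mesenchyme given above were not refitted without cluster 8. Hoxb2 was called higher in oviduct at 0.40 ± 0.14 (SE, edgeR adjusted p = 0.0368), from 10.3 and 8.11 CPM (oviduct) and 6.68 and 6.84 CPM (uterus). This small difference rested on single libraries: it was 0.20 without oviduct replicate 1, 0.37 without uterine replicate 1 and 0.42 without uterine replicate 2, and was called in none of these. With DESeq2 (0.39), with doublets kept (0.36), without cluster 8 (0.05) or with classes from clusters (0.22) it was not called either. Its adjusted p ran from 0.00269 to 0.829 over all alternatives. Hoxb3, Hoxb6, Hoxb7 and Hoxb8 were not called, at 0.31, 0.27, 0.58 and 0.07. The median over the 8 genes was 0.35, and over all genes tested -0.00. Mesenchymal markers in these sums stood at 96.9 and 100.2 UMIs per 10000 in oviduct and 44.3 and 45.0 in uterus. Mesothelial markers stood at 2.16 and 1.73 (oviduct) and 0.269 and 0.282 (uterus), and endothelial ones at 0.618 and 0.627 (oviduct) and 0.271 and 0.245 (uterus). Smooth muscle markers stood at 8.32 and 8.65 (oviduct) and 8.52 and 9.15 (uterus). The part of these lists in the differences was not tested.

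**Figure D3:**
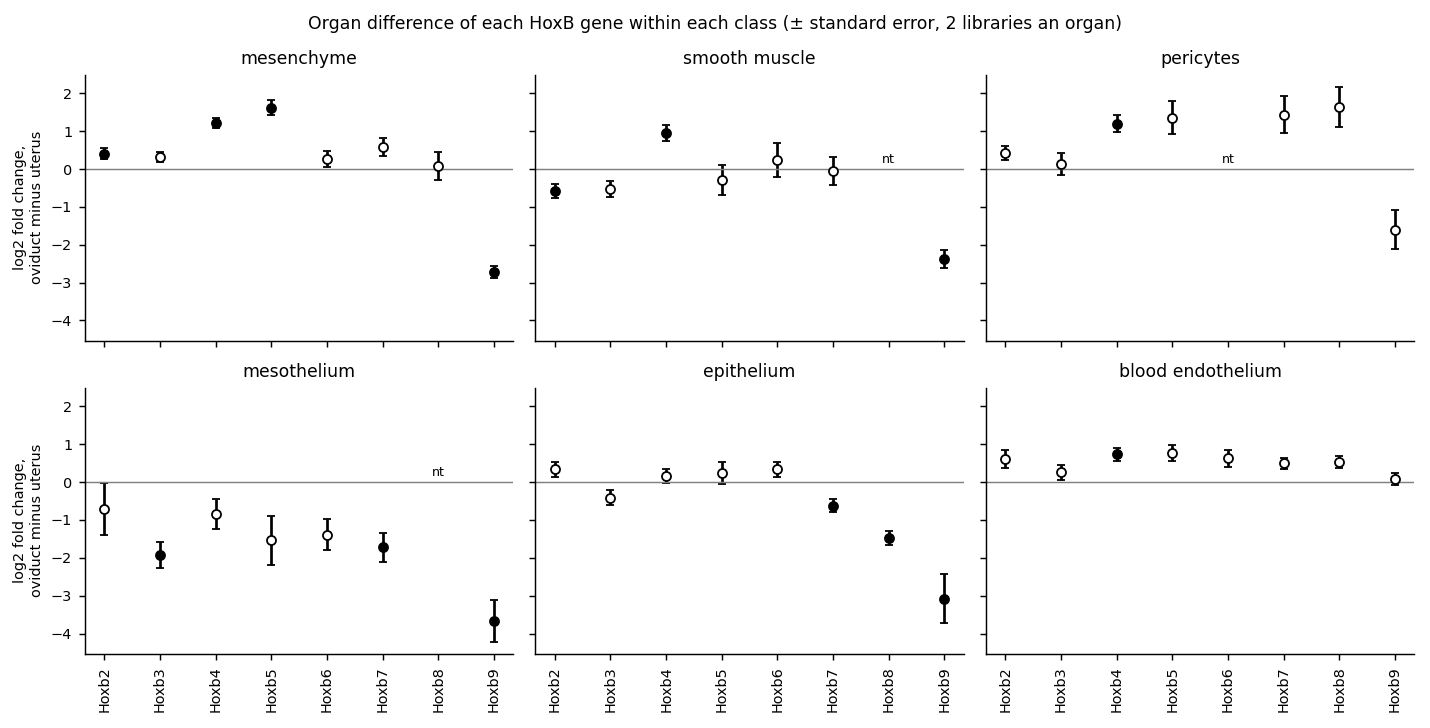
Log2 fold change (oviduct minus uterus) of each HoxB gene with its standard error, in 6 classes; genes run from Hoxb2 to Hoxb9, filled points were called at an adjusted p under 0.05, open points were not, and nt marks a gene not tested. Hoxb9 is below 0 in 5 of the 6 classes (called in 4) and close to 0 in blood endothelium. In epithelium, mesothelium and pericytes it passed the filter on low counts through the uterine libraries alone, so these classes are not used as support.

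In smooth muscle 3 of 7 tested HoxB genes were called, against 30.4% of all genes. Hoxb9 stood at 1.41 and 1.26 CPM (oviduct) and 7.28 and 6.54 CPM (uterus), with no overlap, and its log2 fold change was -2.38 ± 0.25 (SE, edgeR adjusted p = 2.31e-06). Hoxb4 was higher in oviduct, at 0.96 ± 0.21 (SE, edgeR adjusted p = 0.00282), from 6.91 and 5.96 CPM (oviduct) and 3.37 and 3.18 CPM (uterus). Hoxb2 was higher in uterus, the reverse of mesenchyme, at -0.57 ± 0.18 (SE, edgeR adjusted p = 0.0289). It stood at 5.63 and 4.98 CPM (oviduct) and 7.46 and 8.09 CPM (uterus). It was no longer called without oviduct replicate 2 (-0.48) or uterine replicate 2 (-0.48), with DESeq2 (-0.57) or with classes from clusters (-0.49), and its adjusted p ran from 0.0126 to 0.210. The median over the 7 genes was -0.30, and over all genes -0.01.

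In epithelium 3 of 8 were called, against 25.3% of all genes, and all 3 were higher in uterus. They were Hoxb7, Hoxb8 and, on few UMIs, Hoxb9. The epithelium of the organs did not fall in the same clusters: cluster 22 held 78 and 145 oviduct and 0 and 0 uterine cells, cluster 23 held 28 and 11 oviduct and 33 and 25 uterine cells, and cluster 20, of low depth, held 23 and 59 oviduct and 9 and 20 uterine cells. The log2 fold change of Hoxb8 was -1.48 ± 0.19 (SE, edgeR adjusted p = 2.02e-06), a 2.79-fold difference, with both uterine libraries above both oviduct ones. It was called in 14 of 15 alternatives. The exception, added after seeing the data, kept only the epithelial cells of cluster 23, where Hoxb8 stood at 69.4 and 45.2 CPM (oviduct) and 65.5 and 79.1 CPM (uterus), and in oviduct replicate 2 that is 3 UMIs. In cluster 22, of oviduct alone, it stood at 19.1 and 22.3 CPM. Within cluster 23 the libraries of the organs overlapped, and the differences of Hoxb8 (-0.16, edgeR adjusted p = 0.966) and Hoxb7 (0.012) were not called. The organ difference of the class and the make-up of its clusters can thus not be told apart for these genes. Hoxb7 differed by -0.62 ± 0.18 (SE, edgeR adjusted p = 0.00999). In the whole class, without oviduct replicate 2 (-0.50) or uterine replicate 2 (-0.60) Hoxb7 was not called, and its adjusted p ran from 0.00166 to 0.996. Hoxb9 differed by -3.08 ± 0.65 (SE, edgeR adjusted p = 9.01e-04), on 7 oviduct and 15 uterine UMIs. It passed the filter on low counts through the uterine libraries alone, so its call is not used as support. Without oviduct replicate 1 (-3.01), oviduct replicate 2 (-3.12) or uterine replicate 1 (-2.94) it was not called, and without uterine replicate 2 or within cluster 23 alone it was not tested. Its adjusted p ran from 3.52e-04 to 0.131. Hoxb2 to Hoxb6 lay between -0.41 (Hoxb3) and 0.34 (Hoxb6) and were not called. The median over the 8 genes was -0.12, and over all genes 0.01. Mesenchymal markers in the epithelial sums, all 10 detected, stood at 0.955 and 1.05 UMIs per 10000 in oviduct and 1.75 and 1.27 in uterus, against 44.3 to 100.2 in mesenchyme, and their part in the difference was not tested.

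In mesothelium, the sheet of cells on the outer surface, 3 of 7 were called, against 7.6% of all genes, and all 3 were higher in uterus. They were Hoxb3, Hoxb7 and Hoxb9. Of these, Hoxb9 passed the filter on low counts through the uterine libraries alone, so its call is not used as support. Hoxb3 stood at 3.21 and 4.13 CPM (oviduct) and 12.9 and 14.96 CPM (uterus), without overlap, and its log2 fold change was -1.92 ± 0.34 (SE, edgeR adjusted p = 0.00342). Hoxb7 stood at 3.27 and 2.50 CPM (oviduct) and 9.83 and 9.68 CPM (uterus), a difference of -1.72 ± 0.39 (SE, edgeR adjusted p = 0.0152). It was not called without oviduct replicate 1 (-1.95) or oviduct replicate 2 (-1.56), with an adjusted p from 0.00109 to 0.187. Hoxb9 stood at 1.18 and 0.960 CPM (oviduct) and 6.05 and 22.9 CPM (uterus), where the 2 uterine libraries lay far apart, and differed by -3.66 ± 0.55 (SE, edgeR adjusted p = 8.60e-04). Without uterine replicate 2 it was -2.45 and not called, with an adjusted p from 3.92e-14 to 0.0567. The other 4 genes tested were all below 0 and not called, and the median over the 7 was -1.54, against 0.01 over all genes. Mesenchymal markers in these sums, all 10 detected, stood at 69.6 and 62.3 UMIs per 10000 in oviduct and 111.9 and 90.8 in uterus, and were thus higher in uterus too. Smooth muscle markers, all 11 detected, stood at 6.96 and 6.23 UMIs per 10000 in oviduct and 14.5 and 14.1 in uterus. The part of either list in the difference was not tested. The uterine values rest on 4 to 26 UMIs per library for Hoxb3 to Hoxb7 and Hoxb9.

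The vascular classes had 1 call each, with most of the other members above 0. In pericytes 1 of 7 was called (all genes 4.66%), Hoxb4, at 1.20 ± 0.23 (SE, edgeR adjusted p = 0.00213). Without oviduct replicate 1 it was 1.11 and with DESeq2 1.18, not called in either, and its adjusted p ran from 4.76e-06 to 0.149. Hoxb5, Hoxb7 and Hoxb8 lay at 1.36, 1.43 and 1.65 and Hoxb9 at -1.61, with adjusted p from 0.0823 to 0.117 in edgeR. Hoxb2 and Hoxb3 lay at 0.42 and 0.13, with adjusted p of 0.242 and 0.896. The median over the 7 was 1.20, against -0.0019 over all genes, and 6 of the 7 had an unadjusted p under 0.05, against 1643 of 10001 genes. Among these, Hoxb5 and Hoxb8 passed the filter on low counts through the oviduct libraries alone, and Hoxb9 through the uterine ones. Their entry thus hung on the organ where they are high, so this median and this count are not used as support. Smooth muscle markers in pericyte sums, all 11 detected, stood at 49.1 and 43.5 UMIs per 10000 in oviduct and 29.7 and 25.7 in uterus, and their part was not tested. In blood endothelium 1 of 8 was called (all genes 3.31%), Hoxb4 again, at 0.73 ± 0.16 (SE, edgeR adjusted p = 0.0123). It was 0.57 without oviduct replicate 2 and 0.67 without uterine replicate 2, and 0.73 with DESeq2, not called in any of these, with an adjusted p from 0.00129 to 0.146. The other members from Hoxb2 to Hoxb8 were also above 0 and not called, from 0.25 for Hoxb3 to 0.78 for Hoxb5, with adjusted p from 0.0513 to 0.690. This fit does not pair the libraries. Hoxb5 was called with the replicate number as a block and with the numbers crossed, at 0.78 in both. Hoxb9 in endothelium differed by 0.08 ± 0.15 (SE, edgeR adjusted p = 0.908), and the libraries of the organs overlapped. The median over the 8 was 0.58, against -0.0017 over all genes, and 6 of the 8 had an unadjusted p under 0.05, against 1455 of 11094 genes. No HoxB gene could be tested in myeloid cells. Over the 6 classes 15 differences were called of 45 tested, and 7 of them stayed called whichever library was left out: Hoxb4, Hoxb5 and Hoxb9 in mesenchyme, Hoxb4 and Hoxb9 in smooth muscle, Hoxb8 in epithelium and Hoxb3 in mesothelium. Fits by cluster were run for mesenchyme and epithelium alone, and there Hoxb5 in mesenchyme and Hoxb8 in epithelium lost their call, as given above. Smooth muscle and mesothelium were not refitted by cluster.

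Whether the organ difference itself changed with the class was tested as an interaction, the organ effect of a class minus that of mesenchyme. Of 8 genes, 5 were called in epithelium (all 14872 genes 21.9%), 5 in mesothelium (17.6%), 3 in smooth muscle (11.6%), 1 in blood endothelium (10.9%) and 0 in pericytes (7.36%). In pericytes 2 genes had an unadjusted edgeR p under 0.05. The endothelial one was Hoxb9, at 2.80 ± 0.23 (SE, edgeR adjusted p = 2.63e-10); its organ effect was -2.72 in mesenchyme and 0.08 in endothelium. It was called in all 13 alternatives, from 2.64 to 2.93. In epithelium Hoxb4 (-0.99) and Hoxb7 (-1.10) were called in every alternative. Hoxb8 was -1.46 ± 0.41 (SE, edgeR adjusted p = 0.00966), and without oviduct replicate 1 (-1.50) or uterine replicate 2 (-0.92) it was not called, with an adjusted p from 9.54e-04 to 0.177. Hoxb9 had no such difference between epithelium and mesenchyme that passed the test (-0.35), nor between smooth muscle and mesenchyme (0.33). In mesothelium the interactions of Hoxb3 (-2.17) and Hoxb7 (-2.22) were called in every alternative. No call in smooth muscle was. Because all classes are set against mesenchyme, these differences share its sums. They were not refitted within clusters.

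The third measure is the share of cells in which HoxB RNA was detected at a fixed depth. Each cell was thinned to 5000 UMIs, which left 13649 cells, and a cell counted if it had at least 1 UMI of any HoxB gene. The uterine epithelial samples held 26 and 24 cells of this depth. The share was 65.4 to 75.0% in the 4 epithelial samples and 61.0 to 64.3% in the endothelial ones. In pericytes it was 51.7% and 53.7% in oviduct and 37.7% and 36.4% in uterus. In mesenchyme it was 16.0 to 18.2%, in smooth muscle 8.45 to 12.4% and in mesothelium 10.4 to 30.4%. Myeloid cells, which served as the class without the RNA, had such a UMI in 0 or 1 cell of 10 to 32 per library, shares of 0% to 10.0%. There a count of 0 in 23 cells still allows a share of cells with a UMI of up to 14.8% (exact 95% interval, counting error only). Median depths before thinning were 26976 to 56792 UMIs in these epithelial cells and 14565 to 28249 in the myeloid ones. The upper limits in the other 3 myeloid samples were 16.2%, 21.9% and, for 10 cells, 44.5%. The smooth muscle shares lay below all 4 limits, and those of epithelium, endothelium and oviduct pericytes above all 4. Those of mesenchyme, mesothelium and uterine pericytes lay above some limits and below others in at least 1 library. Without thinning the mean share was 75.9% in epithelium, 78.5% in endothelium and 32.8% in mesenchyme.

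**Figure D4:**
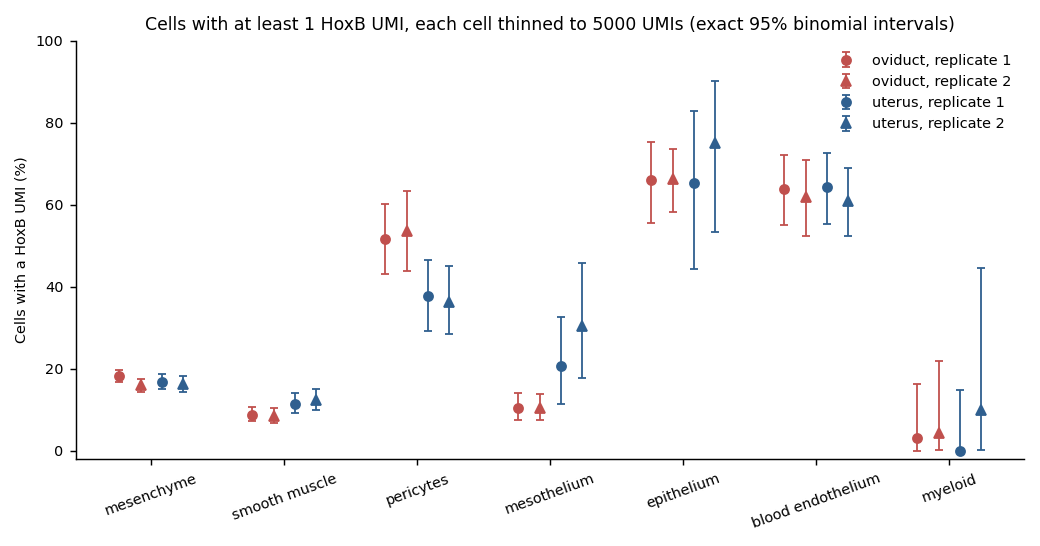
Percent of cells with at least 1 UMI of any HoxB gene after each cell was thinned to 5000 UMIs, by class and library; bars are exact 95% binomial intervals, which cover counting error only. Epithelium and blood endothelium lie between 61.0% and 75.0%, and mesenchyme and smooth muscle between 8.45% and 18.2%.

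Some single cells held several members. After thinning, 2 or more different HoxB genes were found in 28.1 to 38.5% of epithelial cells and in 24.6 to 30.8% of endothelial cells. In mesenchyme this was 1.63 to 3.098% and in smooth muscle 0.717 to 1.32%. The highest epithelial share is from 26 cells, in uterine replicate 1. The most seen in 1 cell was 5 genes, in an epithelial, an endothelial and a pericyte library.

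Mesenchyme was not uniform. Cells were clustered without any Hox gene, and 1 mesenchymal cluster, number 8, held far more HoxB RNA than the others. Whatever their class by markers, it had 806 cells, of which oviduct gave 418 and 287 and uterus 52 and 49, and was led by the neurofilament genes Nefm and Nefl, the chemokine Cxcl13, the matrix gene Postn and the angiotensin receptor Agtr2. In this cluster Hoxb5 stood at 34.6 and 23.2 CPM (oviduct) and 16.8 and 13.4 CPM (uterus). In all other mesenchymal clusters shown, Hoxb5 was at most 7.77 CPM in any library with 40 or more cells. Hoxb4 stood at 26.1 and 26.4 CPM (oviduct) and 23.8 and 10.7 CPM (uterus) and Hoxb3 at 21.8 and 21.5 CPM (oviduct) and 32.3 and 20.1 CPM (uterus). For Hoxb4 the lowest of these lay below cluster 16 (14.7 CPM in oviduct replicate 1) and cluster 18 (12.8 CPM in uterine replicate 2). Hoxb2 had 27.0 and 31.3 CPM (oviduct) and 15.4 and 22.8 CPM (uterus), which overlapped with cluster 6, at 20.5 and 16.1 CPM in oviduct from 46 and 50 cells, and with cluster 18, at 15.5 CPM in uterine replicate 2. Hoxb9 had 5.15 and 4.06 CPM (oviduct) and 9.82 and 13.4 CPM (uterus), and its oviduct values were the highest of any mesenchymal cluster in replicate 1 and below cluster 9 (4.35 CPM) in replicate 2, among those with 40 or more cells. In the clusters with 40 or more cells in all 4 libraries the uterine Hoxb9 values lay above the oviduct ones. These clusters were found and chosen after their values were seen, and no test was run.

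**Figure D5:**
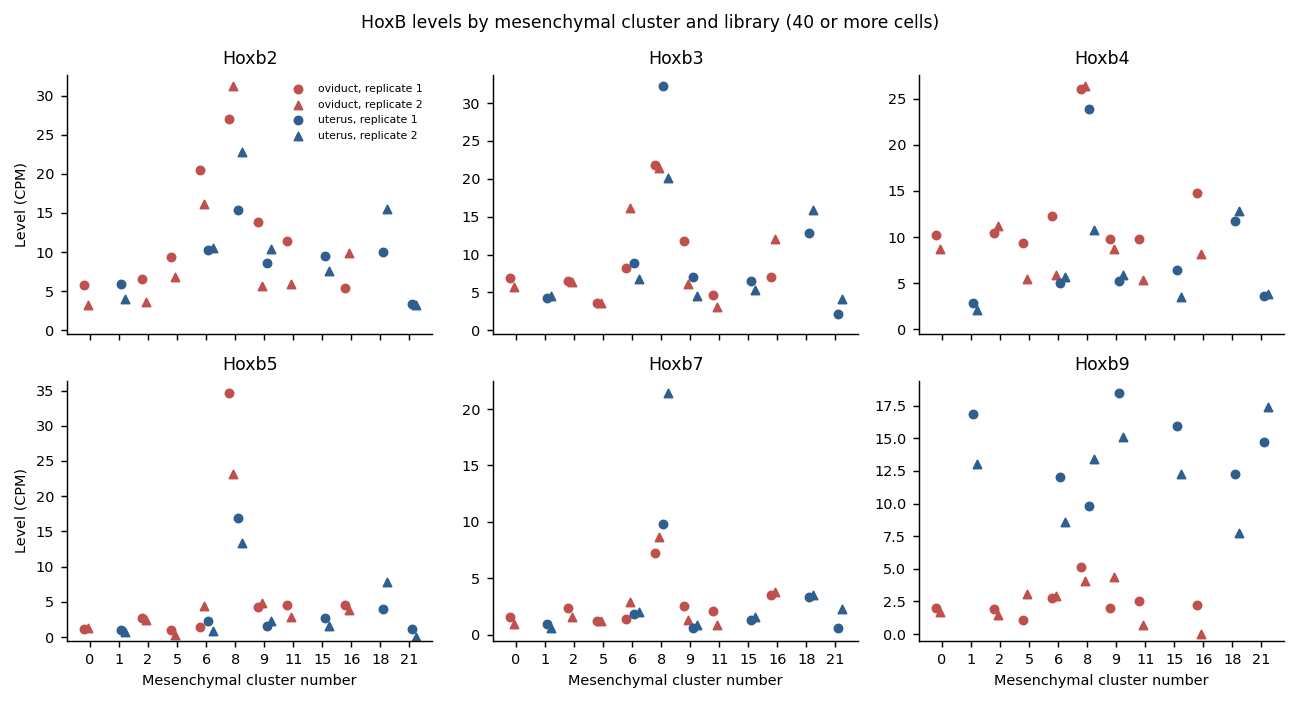
Level (CPM) of 6 HoxB genes in each mesenchymal cluster, by library; only libraries with 40 or more cells in a cluster are shown, and cluster 10, of low-depth barcodes, is left out. Hoxb3 and Hoxb5 of cluster 8 lie above all other clusters in every library, while Hoxb9 separates the uterine (blue) from the oviduct (red) libraries in the clusters that hold both.

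Across the 28 sums of class and library, the correlation of log2(CPM + 1) between members from Hoxb2 to Hoxb8 ran from 0.58 (Hoxb2 with Hoxb6) to 0.95 (Hoxb4 with Hoxb5), and members that are not neighbours could be as close, as Hoxb5 with Hoxb7 (0.91). All pairs with Hoxb9 lay lower, from 0.32 (with Hoxb2) to 0.52 (with Hoxb5), and its neighbour Hoxb8 was at 0.41. These are descriptions over 28 points that share libraries and depth. Among the 11043 genes that are not Hox genes by name, the one most like Hoxb9 was its neighbour Gm53, which lies inside the HoxB cluster, with a Pearson r of 0.93 (Spearman 0.92).

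Gm53 lies upstream of Hoxb9 on the same strand, and is a long noncoding RNA. In mesenchyme it stood at 1.78 and 2.37 CPM (oviduct) and 15.6 and 14.5 CPM (uterus), without overlap, and its log2 fold change was -2.94 ± 0.15 (SE, edgeR adjusted p = 3.22e-08). In smooth muscle it was -2.57 and in mesothelium -3.72, both called. The mesothelial value rests on 9 oviduct and 12 uterine UMIs, and values of Gm53 without single libraries are not reported here. In blood endothelium it stood at 27.3 and 24.5 CPM (oviduct) and 43.0 and 30.03 CPM (uterus), a difference of -0.44 that was not called. Its interaction in endothelium was 2.53 ± 0.24 (SE, edgeR adjusted p = 4.52e-09). In epithelium it had at most 2 UMIs per library. Gm53 and Hoxb9 were thus both called higher in uterus in mesenchyme, smooth muscle and mesothelium, and in endothelium neither was called. In mesothelium both passed the filter on low counts through the uterine libraries alone. Hoxb9 there was -2.45 without uterine replicate 2, and was not called.

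The antisense RNAs overlap HoxB genes on the other strand. Gm11536 and the 3' end of Hoxb3os lie within Hoxb3, while the 3' end of Hoxb5os lies outside any HoxB gene. How strand was used in counting is not given in the sources used here, so their levels are uncertain where they overlap. Hoxb3os, opposite Hoxb2 and Hoxb3, stood at 6.15 and 5.26 CPM (oviduct) and 8.12 and 7.98 CPM (uterus) in mesenchyme. It was higher in uterus there, at -0.54 ± 0.14 (SE, edgeR adjusted p = 0.00708), and in smooth muscle, at -0.94 ± 0.17 (SE, edgeR adjusted p = 4.67e-04). In the other 3 classes tested it was not called and lay above 0, at 0.59 in pericytes, 0.64 in endothelium and 0.19 in epithelium. Its organ effect differed from that of mesenchyme by 1.14 ± 0.30 (SE, edgeR adjusted p = 0.0163) in pericytes and by 1.20 ± 0.25 (SE, edgeR adjusted p = 0.00129) in endothelium. Hoxb5os, opposite Hoxb5 and Hoxb6, was called in smooth muscle, at -2.03 ± 0.51 (SE, edgeR adjusted p = 0.00639), 1 of 3 classes tested. In smooth muscle it passed the filter on low counts through the uterine libraries alone, so its call is not used as support. It stood there at 0.762 and 0.140 CPM (oviduct) and 1.91 and 1.98 CPM (uterus), and the oviduct values, which lay far apart, rest on 13 and 2 UMIs. Its values without single libraries are not reported here. Gm11536, inside Hoxb3, had at most 4 UMIs per sum.

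The 3 genes outside the Hox clusters whose pattern was most like each member, with Pearson r over the 28 sums, were as follows. For Hoxb2 they were Emid1 (0.91), Cdc42ep4 (0.89), Gtf2a2 (0.89). For Hoxb3 they were Sox5 (0.92), Vangl1 (0.89), Tmem63b (0.89), and for Hoxb4 Asap2 (0.90), Tspan15 (0.90), Ccnjl (0.89). For Hoxb5 they were Mlf1 (0.88), Ccnjl (0.87), Mamld1 (0.87), and for Hoxb6 Hbegf (0.92), Slco2a1 (0.91), Cyb5r3 (0.91). For Hoxb7 they were Car2 (0.91), Hbegf (0.90), Cyb5r3 (0.90), for Hoxb8 Psmb5 (0.91), Cyb5b (0.90), Ccz1 (0.90), and for Hoxb9 Plcg1 (0.89), Cdc37 (0.88), Thsd1 (0.88). Hbegf encodes a growth factor of the EGF family and Sox5 a transcription factor. Hbegf and Cyb5r3 were named for both Hoxb6 and Hoxb7, and Ccnjl for both Hoxb4 and Hoxb5. Likeness of pattern over so few points is a description.

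The other parts of the Hox system were read from lists of genes. Of the other Hox genes, 23 of 24 (13 higher in oviduct, 10 in uterus) were called in mesenchyme, 21 of 22 (12 higher in oviduct, 9 in uterus) in smooth muscle and 4 of 5 (3 higher in oviduct, 1 in uterus) in epithelium, against the background shares given above. The median log2 fold change in mesenchyme was 1.62. The largest fitted differences were those of Hoxc8 (5.09) and Hoxa7 (4.84) toward oviduct and of Hoxd12 and Hoxa11 (-5.72) toward uterus. Hoxd12 stood at 0.0185 ± 0.0262 CPM in oviduct and 1.69 ± 0.652 CPM in uterus (SD, 2 libraries each), and no fold is given on so few oviduct UMIs. All 7 HoxD genes tested were higher in uterine mesenchyme. Among them, Hoxd12 and Hoxd13 passed the filter on low counts through the uterine libraries alone. They are counted here and in the 23 of 24, but their calls are not used as support. Of the HoxC genes 6 of 7 were higher in oviduct, and 1 in uterus. HoxB calls in mesenchyme went both ways, 3 higher in oviduct and 1 in uterus of 8 tested. That count is near the 47.9% of all genes called there. Of the 3, Hoxb2 and Hoxb5 were not called without mesenchymal cell cluster 8. HoxA also went both ways, with 7 genes higher in oviduct and 2 in uterus of 10 tested.

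Genes with the same number in other clusters are paralogs, and their values here are organ differences in mesenchyme. Of the paralogs of Hoxb9, which rose toward uterus, Hoxd9 did too (-2.75), Hoxc9 went to oviduct (3.62) and Hoxa9 was not called (-0.14). Hoxd9 stood at 19.8 ± 0.368 CPM in oviduct and 129 ± 6.81 CPM in uterus (SD, 2 libraries each), and Hoxc9 at 44.4 ± 0.885 CPM in oviduct and 3.48 ± 0.104 CPM in uterus (SD, 2 libraries each). Of those of Hoxb4, Hoxa4 (2.45) and Hoxc4 (3.49) were higher in oviduct as Hoxb4 was. Of those of Hoxb5, Hoxa5 (2.23) and Hoxc5 (4.28) were higher in oviduct. Hoxa2 (1.93), paralog of Hoxb2, and Hoxa3 (1.79), paralog of Hoxb3, were higher in oviduct, and Hoxd3 (-2.77) in uterus. Hoxa6 (1.80), Hoxc6 (4.00) and Hoxa7 were higher in oviduct, while Hoxb6 and Hoxb7 were not called. Of the paralogs of Hoxb8, Hoxc8 was higher in oviduct and Hoxd8 (-1.49) in uterus. Hoxd13 was higher in uterus, at 0.0114 ± 0.0162 CPM in oviduct and 0.634 ± 0.135 CPM in uterus (SD, 2 libraries each). It passed the filter on low counts through the uterine libraries alone, so its call is not used as support. Hoxd1, Hoxa13, Hoxc12 and Hoxc13 were not tested there.

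Of the cofactors that bind DNA with Hox proteins, 6 of 9 (3 higher in oviduct, 3 in uterus) were called in mesenchyme, 3 of 9 (2 higher in oviduct, 1 in uterus) in smooth muscle and 2 of 9 (2 higher in oviduct, 0 in uterus) in epithelium, against 47.9%, 30.4% and 25.3% of all genes in these classes. The last 2 counts are near those shares. Pbx3 stood at 30.2 ± 1.53 CPM in oviduct and 16.9 ± 0.834 CPM in uterus (SD, 2 libraries each) in mesenchyme, a log2 fold change of 0.78. Meis2 (-0.64) and Pknox2 (-0.62) were higher in uterus. The median of the list was -0.09 in mesenchyme. Of the signals that act on Hox clusters, which include Cdx factors and the enzymes and receptors of retinoic acid, 11 of 13 (6 higher in oviduct, 5 in uterus) were called in mesenchyme, 5 of 11 (3 higher in oviduct, 2 in uterus) in smooth muscle and 4 of 9 (3 higher in oviduct, 1 in uterus) in epithelium. Aldh1a1, which makes retinoic acid, stood at 78.4 ± 3.91 CPM in oviduct and 0.293 ± 0.0926 CPM in uterus (SD, 2 libraries each), a difference of 7.98. Cyp26a1, which breaks it down, had 0.657 CPM in oviduct and 0 in both uterine libraries. Cdx1, which stood at 0.0528 ± 0.0223 CPM in oviduct and 0.834 ± 0.406 CPM in uterus (SD, 2 libraries each), and Rdh10 (-1.98), an enzyme earlier in retinoic acid synthesis, were higher in uterus. The median of the list was 0.26. Aldh1a1 and Cyp26a1 passed the filter on low counts through the oviduct libraries alone, and Cdx1 through the uterine ones. These genes are part of the count in mesenchyme, but are not used as support. Of the chromatin regulators, 12 of 24 (5 higher in oviduct, 7 in uterus) were called in mesenchyme, 7 of 24 (4 higher in oviduct, 3 in uterus) in smooth muscle and 6 of 24 (4 higher in oviduct, 2 in uterus) in epithelium, close to the shares of all genes in each of these classes, and the median in mesenchyme was -0.08. The list did not stand apart by its count, and its named members are described singly. The Polycomb gene Cbx8 (0.65) was higher in oviduct, and Cbx2 (-0.79) and Jarid2 (-0.60) were higher in uterus.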

How the data were processed

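Single cells of newborn oviduct and uterus were profiled in 4 libraries. The authors deposited raw UMI counts per gene and cell, made with Cell Ranger (6.0.1 in the headers of the filtered matrices, 4 in those of the raw matrices, per the file headers) on mm10, per the submitters' processing notes, which also name Seurat 4.2.3. The use of strand in counting is not given in the sources used here.

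Barcodes entered with 500 or more genes and no more than 15% mitochondrial UMIs, and probable doublets (Scrublet score, 0.8% per 1000 barcodes) were removed. A cell joined a class with at least 3 of its markers and enough marker UMIs per 10000, and these thresholds were set after the marker levels had been seen. The members and lists were chosen with earlier results of these data known.

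Counts were summed per library and class and tested with edgeR 4.0.16 (R 4.3.3, TMM, filterByExpr, quasi-likelihood F-test, Benjamini-Hochberg over all genes tested). A difference was called at an adjusted p under 0.05. Organs were compared within each class, without pairing the libraries. The interactions and the class differences came from 1 model with library as a term. The code was tested on simulated data. Clusters came from scanpy 1.11.5 without Hox genes. Alternatives were DESeq2 1.42.0, other size factors, no filter on low counts, other cell filters and classes, subtraction of free RNA, a replicate block, and each library left out. A crossed block, mesenchyme without 1 cluster and epithelium of 1 cluster were added after seeing the data. Genes named are the HoxB genes, the other genes between Hoxb13 and Hoxb1, the 3 genes most like each member, and of each list the 2 with the largest change in each direction in mesenchyme, plus the paralogs. Neurofilament and other leading genes of 1 cluster were chosen after their values were seen. Hoxd4 was left out, since 2 features carry its symbol. Some genes that the rule selects are not reported here.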

Additional observations from a re-analysis of the deposited data

Results flagged for a closer look

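The organ effect (oviduct minus uterus, log2) differed between a class and mesenchyme by edgeR's interaction test at an adjusted p under 0.05 for 14 pairs of gene and class. In each class 8 HoxB genes were tested. Over all 14872 genes the share called was 21.9% in epithelium, 17.6% in mesothelium and 11.6% in smooth muscle. It was 10.9% in blood endothelium, near the 1 of 8 HoxB genes called there, and 7.36% in pericytes. In epithelium the difference from mesenchyme was -0.65 for Hoxb3, -0.99 for Hoxb4, -1.28 for Hoxb5, -1.10 for Hoxb7 and -1.46 for Hoxb8. In mesothelium it was -2.17 for Hoxb3, -1.99 for Hoxb4, -3.06 for Hoxb5, -1.58 for Hoxb6 and -2.22 for Hoxb7. In smooth muscle it was -0.97 for Hoxb2, -0.85 for Hoxb3 and -1.92 for Hoxb5. In blood endothelium it was 2.80 for Hoxb9. The sign was negative in all but the last. All 14 share the mesenchymal sums, and 5 stayed called whichever library was left out. The organs shared few clusters in epithelium, and the interactions were not refitted within clusters. The organ effect of Hoxb5 in mesenchyme, which enters 3 of the 14, fell from 1.62 to 0.61, not called, without cluster 8, a fit chosen after seeing the data. Of the 14, 9 lost their call without a library, with these values. Without oviduct replicate 1 this was Hoxb3 in epithelium (-0.34), Hoxb5 in epithelium (-0.999), Hoxb8 in epithelium (-1.50), Hoxb2 in smooth muscle (-0.86), Hoxb3 in smooth muscle (-0.56) and Hoxb5 in smooth muscle (-1.60). Without uterine replicate 1 this was Hoxb3 in epithelium (-0.74), Hoxb5 in epithelium (-0.58), Hoxb6 in mesothelium (-1.82), Hoxb3 in smooth muscle (-0.78) and Hoxb5 in smooth muscle (-1.81). Without uterine replicate 2 this was Hoxb3 in epithelium (-0.49), Hoxb8 in epithelium (-0.92), Hoxb4 in mesothelium (-1.61), Hoxb5 in mesothelium (-2.60), Hoxb6 in mesothelium (-1.40), Hoxb2 in smooth muscle (-0.89), Hoxb3 in smooth muscle (-0.89) and Hoxb5 in smooth muscle (-1.99).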

How the results depend on the processing

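Of the 15 organ calls 5, and of the 14 interaction calls 5, were called in every alternative. With DESeq2 the number of genes called was 2634 in smooth muscle (edgeR 4100), 156 in pericytes (466), 590 in mesothelium (960), 1678 in epithelium (3058) and 154 in endothelium (367). Subtracting free RNA gave 570 in mesothelium and 24 in myeloid cells (15), and no filter on low counts gave 587 in endothelium and 146 in myeloid cells. With the epithelial cells of cluster 23 alone, a choice made after seeing the data that leaves fewer cells, 96 genes were called in epithelium, and Hoxb7 changed sign to 0.012 and was not called. With classes from clusters, 2 differences of uterine smooth muscle from mesenchyme changed sign, Hoxb2 to -0.58 and Hoxb7 to -2.22. The cause was not tested. Leaving out single libraries moved the HoxB organ calls from 15 to 9 (without uterine replicate 2) to 17 (without uterine replicate 1), the interaction calls from 14 to 6 to 16, and the genes called to 133 to 453 in pericytes, 1846 to 2644 in epithelium and 39 to 167 in myeloid cells. Without thinning, the mean share of cells with a HoxB UMI was 78.5% in endothelium, 75.9% in epithelium, 66.9% in pericytes, 45.4% in mesothelium, 32.8% in mesenchyme and 23.6% in smooth muscle. Ranked by Spearman, 7 of the 24 most alike genes were still named.

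The replicate number may mark a pool, but which pool a number stands for is not given. Differences between replicates correlated across the organs, over genes, at 0.36 in mesenchyme, 0.15 in smooth muscle and 0.20 in mesothelium, and at -0.30 in epithelium and -0.24 in endothelium; in pericytes and in myeloid cells it was 0.04. With the number as a block, 5 more HoxB organ differences were called: Hoxb3 (0.31) and Hoxb7 (0.59) in mesenchyme, Hoxb6 in mesothelium (-1.39), Hoxb8 in pericytes (1.64) and Hoxb5 in endothelium (0.78). None was lost, and 99 genes were called in myeloid cells. With the numbers crossed, a fit chosen after seeing the data, 275 genes were called in pericytes, 512 in mesothelium and 56 in myeloid cells, 2 HoxB organ calls were lost, Hoxb2 in mesenchyme and Hoxb7 in mesothelium, and 1 was gained, Hoxb5 in endothelium.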
